A study of Mus musculus with 12 samples.

Results

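CD8 T cells of a subtype that the authors named for granzyme B (Gzmb) were followed across tumours grown from 4T1, a mammary carcinoma line of BALB/c mice, as 5 clones and as the parental line. The cells are those that the authors' deposited annotation names T and, within T, Gzmb+ Cd8+ T, in the 6 libraries enriched for CD45, the surface protein of blood-derived cells. There were 1885 of them among 54955 annotated CD45 cells (3.43%) and 115612 cells in the whole series. Clone E gave 561, EM1 690, EM2 252, EM3 311, M 63 and the parental tumour 8. After 3 likely doublets were left out, 1882 cells were analysed. Each group is 1 tumour: cells of 1 clone, or of the parental line, implanted into the mammary fat pad of female BALB/c mice aged 9 to 11 weeks, with no other treatment named in the labels. For each tumour there was a CD45-enriched library and a library of total cells. With 1 tumour per group no difference between clones has a replicate check, so values carry 95% intervals for counting error only, and fewer cells of a type cannot be told apart from less RNA per cell where levels are summed over cells.

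CD8 T cells kill by releasing granules at the contact with a target: perforin opens a way through the membrane, and granzymes, a family of serine proteases, trigger cell death inside the target. In tumours, CD8 T cells that meet antigen for long acquire inhibitory receptors such as PD-1 (Pdcd1), LAG-3 and TIM-3 (Havcr2) while still holding granule proteins, a state described as exhaustion. Naive and stem-like CD8 T cells instead express Tcf7, Lef1, Ccr7, Il7r and Klf2, which go with self-renewal and with traffic through lymphoid tissue. The study asks how epithelial-mesenchymal transition of tumour cells relates to the immune cells around them and to killing.

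The share of Gzmb+ CD8 T cells among CD45 cells was highest in EM1, at 7.37% (6.85 to 7.92), followed by E at 5.25% (4.84 to 5.69). EM2 had 2.81% (2.48 to 3.18) and EM3 2.87% (2.57 to 3.21), whose intervals overlap. The lowest shares were those of M, 0.838% (0.645 to 1.07), and of the parental tumour, 0.119% (0.0515 to 0.235). With granulocytes left out of the whole they were 1.69% (1.30 to 2.16) and 0.159%, still the lowest. The order changed when the whole was the T cells alone: 31.1% in E, 22.7% in EM1, 18.1% in EM3, 13.8% in EM2, 9.18% in M and 0.998% in the parental tumour. Among CD8 T cells, taken here as the annotated Gzmb+ and Lef1+ CD8 cells, EM1 again led with 87.0% (84.4 to 89.2). A further annotated class, Mki67+ Cd8/Cd4 T, mixes CD8 and CD4 cells by its name and was left out of that whole. E had 74.3% (71.0 to 77.4) and EM2 76.6%, whereas EM3 had only 38.5% (35.2 to 42.0) and M 48.8% (39.9 to 57.8). The parental tumour was lowest at 23.5% (10.7 to 41.2), from 8 of 34 cells, with an interval that overlaps those of EM3 and M. EM2 and EM3, with like shares of CD45 cells, therefore lay far apart in the balance between the annotated CD8 subtypes. Markers of the Lef1+ cells in that whole, which differed between tumours, are given below.

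**Figure D1:**
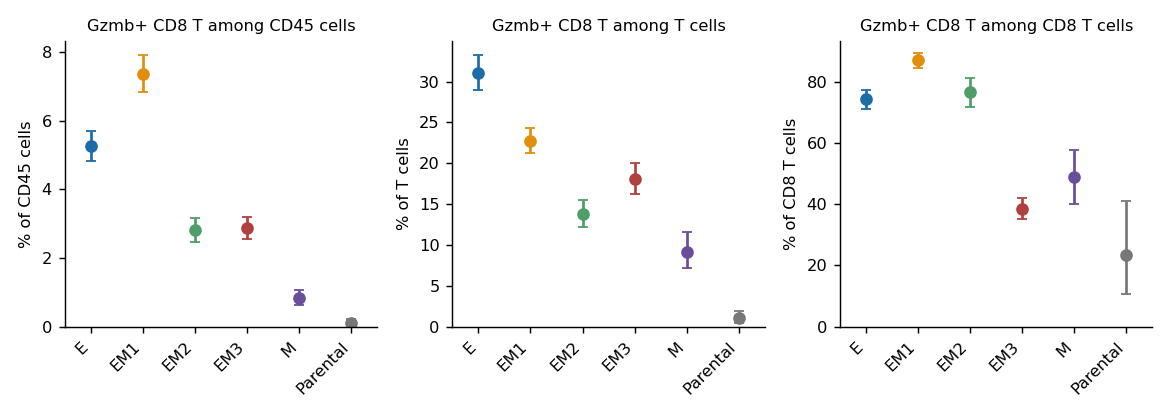
Share of Gzmb+ CD8 T cells (percent of the cells named in each panel) in the CD45 library of each tumour. Points are shares and bars are 95% exact binomial intervals. E and EM1 stand highest among CD45 cells. Among CD8 T cells EM3 falls to 38.5%, and the parental tumour, with 8 of 34 cells, to 23.5%.

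The label was checked against the markers given for these cells. Cd8a, a chain of the CD8 co-receptor, stood at 1195 CPM (E), 1229 (EM1), 1118 (EM2), 1037 (EM3) and 559.6 (M), and 93.9% of members in E, 84.2% in EM1 and 82.1% in EM2, with 92.9% in EM3 and 71.4% in M had a UMI of Cd8a or Cd8b1. CPM here is the UMIs (unique molecular identifiers, counting transcripts) of a gene per 1000000 UMIs, both summed over the member cells of a tumour. In granulocytes of the same libraries the share with a Cd8 UMI was 0.120 to 2.37%. Gzmb in members was 991 CPM (E), 837 (EM1), 967 (EM2), 574 (EM3) and 835 (M). Natural killer cells had 863, 857, 1104, 427 and 1271 CPM, and Lef1+ CD8 T cells 453, 448, 466, 230 and 577. Only in M did the Gzmb intervals of members and Lef1+ cells overlap. Nkg7 in M was 1053 CPM in members, 1033 in natural killer cells and 741 in Lef1+ cells. Pdcd1 in M was 2409, 82.6 and 1046 CPM in that order. Ncr1 of natural killer cells and Ms4a1 of B cells were at 0 in every tumour. Klre1, also listed as a natural killer marker, was 163 CPM (E), 118 (EM1), 22.1 (EM2), 160 (EM3) and 66.4 (M). Eomes, another on that list, was present too and is given below with the transcription factors. Cd4, the co-receptor of helper T cells, was 83.9 CPM (E), 294 (EM1), 180.1 (EM2), 339 (EM3) and 28.5 (M), against 605 to 979 CPM in the CD4 T cells of these tumours. A UMI of both Cd4 and Cd8 was found in 3.57% of members of E, 11.8% of EM1, 7.94% of EM2, 17.4% of EM3 and 1.59% of M. Cd4 without a Cd8 UMI was found in 0.893 to 3.17%. Trdc of gamma-delta T cells reached at most 7.63 CPM and Foxp3 of regulatory T cells at most 15.8 CPM. Tcrg-C2, also listed as a gamma-delta marker, was 47.5 CPM (E), 126 (EM1), 22.1 (EM2), 57.9 (EM3) and 28.5 (M). The other listed markers of natural killer and gamma-delta T cells are absent from the CD45 libraries or not reported here. In Lef1+ CD8 T cells Cd8a was 523 CPM (E), 221 (EM1), 310 (EM2), 487 (EM3) and 272 (M). Trdc in them was 78.8 CPM (E), 388 (EM1), 198 (EM2), 89.7 (EM3) and 98.8 (M). The part of gamma-delta T cells in that class was not tested. The authors' second, automated label called 45.1% of members NKT, 30.1% T cells and 20.9% ILC. Transcripts of other cells were present too: the 8 macrophage markers summed to 3.51 to 7.96% of their level in annotated macrophages, with 2818 CPM in E and 1840.0 in M. The 6 granulocyte markers summed to 1183 CPM in E and 1802 in M.

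The CD45 libraries held 28083101 to 57116299 UMIs. Member cells had a median of 1988 UMIs in E, 1169 in EM1 and 1134 in EM2, with 2211 in EM3 and 1494 in M, and summed to 1263147, 917643, 316557, 776582 and 105436 UMIs in that order. In these sums 3 UMIs, set here as the floor for a count of 0, correspond to 2.38 CPM in E but 28.5 CPM in M, and to 243 CPM in the parental tumour, whose 8 cells are used only for shares. The first 16 bases of the cell barcode were shared by 12.2 to 19.1% of cells among the libraries of E and EM3, among those of EM1 and EM2, within M and within the parental tumour, and by at most 1.91% otherwise. Up to 189 whole barcodes were shared by a pair of libraries. The pairs EM3 against E and EM2 against EM1 thus each lie within 1 such set. For M against E, and wherever EM1 or EM2 is set beside E or EM3, the clone cannot be told apart from whatever else separates those sets.

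The granzyme genes did not move as 1 group. Gzmb itself, the gene that names the cells, was 991 CPM (937 to 1048) in E, 837 CPM in EM1 and 967 in EM2, with 574 CPM (522 to 630.2) in EM3 and 835 in M. EM3 was lowest, but none of the 3 pairs compared below differed 2-fold in these libraries. In M, 1 cell held 44 of 88 Gzmb UMIs. Without its UMIs the level in M would be 417 CPM, below the 574 CPM of EM3 with all its cells. It would also be below the 577 CPM of all Lef1+ CD8 T cells of M. It would also be more than 2-fold below E, which has 953 CPM without the UMIs of its own highest cell. The granzymes encoded beside Gzmb differed more. The mouse cluster on chromosome 14 holds Gzmb (chr14:56258838-56262260, GRCm38, minus strand) with Gzmc, Gzmd, Gzme, Gzmf and Gzmg. Sequence just upstream of the RefSeq start of 4 of these genes, where transcription factors bind, is given here because the genes differ in their behaviour across tumours. It is written 5′ to 3′ on the coding strand, from the C57BL/6J reference (GRCm38.p6) and not from the BALB/c hosts. Capitals mark matches, on either strand, to TGTGGT (the core bound by RUNX factors), TGACGTCA (the cyclic AMP response element) and TGANTCA (the AP-1 site).
Gzmb, chr14:56262360-56262534: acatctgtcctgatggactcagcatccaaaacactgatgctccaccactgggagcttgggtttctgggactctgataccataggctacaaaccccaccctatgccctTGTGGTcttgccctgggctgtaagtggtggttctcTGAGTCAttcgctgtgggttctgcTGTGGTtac
Gzmd, chr14:56132619-56132793: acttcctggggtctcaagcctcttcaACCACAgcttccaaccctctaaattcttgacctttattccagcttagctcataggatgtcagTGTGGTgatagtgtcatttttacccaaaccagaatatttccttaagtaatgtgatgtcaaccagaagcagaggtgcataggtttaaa
Gzme, chr14:56120651-56120825: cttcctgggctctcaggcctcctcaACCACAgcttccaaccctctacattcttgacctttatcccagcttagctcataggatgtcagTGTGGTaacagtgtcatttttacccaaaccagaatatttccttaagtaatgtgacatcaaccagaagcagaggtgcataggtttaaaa
Gzmf, chr14:56211433-56211607: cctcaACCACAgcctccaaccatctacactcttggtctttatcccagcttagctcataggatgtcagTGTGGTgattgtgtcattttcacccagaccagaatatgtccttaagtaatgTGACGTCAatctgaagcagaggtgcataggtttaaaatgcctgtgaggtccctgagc
Each of the 4 stretches holds 2 RUNX cores. At least 1 such core was found in 14.0% of 32851 RefSeq promoter windows, which are longer than the printed stretches. The share of windows with 2 or more was not counted. The AP-1 letters were found in Gzmb and the cyclic AMP element in Gzmf and in Gzmc, whose window is not printed, against 6.75% and 1.55% of promoters. The promoter windows of Gzmd and Gzme were 94.8% identical, whereas Gzmb was 47.3 to 52.2% identical to Gzmc, Gzmd, Gzme and Gzmf. A match is a description of the letters only.

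Gzmf rose from 82.3 CPM (67.3 to 99.8) in E to 722 CPM (664 to 785) in EM3, and it stood at 409 CPM (368 to 452) in EM1, 107 CPM in EM2 and 247 in M. EM1 and EM3 are the high tumours, and their intervals are apart from those of E and EM2. Gzmd was 46.7 CPM (E), 221 (EM1), 104 (EM2), 399 (EM3) and 9.48 (M), and Gzme was 20.6 CPM (E), 195 (EM1), 53.7 (EM2), 249.8 (EM3) and 9.48 (M). Both were high in EM1 and EM3, and both rest on 1 UMI in M. Gzmc, at 21.4 CPM (E), 100.3 (EM1), 34.7 (EM2), 82.4 (EM3) and 18.97 (M), was also highest in EM1 and EM3. Transcripts of Gzmd and Gzme are 90.4% identical and share 12.02% of their 50-base words, and how counts divide between such copies was not tested. The labels name both a kit for fixed RNA and 3′ reagents, so whether each gene was counted by probes or by reads of its own transcript is not known here, for granzyme and Trbv genes alike. A gene was called between a pair of clones when its CPM + 10 differed at least 2-fold, the 95% Poisson intervals were apart and it reached 50 CPM in either clone. Between EM3 and E, 63 of 5088 genes were called (1.24%), with 41 higher in EM3 (0.806%) and 22 lower (0.432%). Of 18 granule genes tested, 5 were higher in EM3 (Gzmc, Gzmd, Gzme, Gzmf and Prf1) and 2 lower (Gzma and Gzmk). The median log2 ratio of the list, on the CPM + 10 scale used for all ratios here, was 0.27, against -0.01 over all genes tested.

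Between EM2 and EM1, 69 of 5266 genes were called (1.31%), 28 higher in EM2 (0.532%) and 41 lower (0.779%). Of 18 granule genes, 5 were lower in EM2 (Gzma, Gzmc, Gzmd, Gzme and Gzmf) and 0 higher, with a list median of -0.08 against -0.01 over all genes. Gzma, a tryptase with a death pathway of its own, fell by 1.09 and Gzmf fell by 1.83 on the log2 scale. Gzma was 138 CPM (E), 207 (EM1), 91.6 (EM2), 63.1 (EM3) and 322 (M), so EM3 and EM2 were its lowest tumours. Gzmk, a granzyme of early effector and memory cells, was 165 CPM (E), 207 (EM1), 224 (EM2), 48.9 (EM3) and 209 (M), with only EM3 low. Gzma, Gzmk and Gzmb were each lowest in EM3, the tumour where Gzmd, Gzme and Gzmf were highest. For Gzmb that rank depends on a single cell of M.

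Prf1, perforin, was highest in EM3 at 379.9 CPM (338 to 426). It was 153 CPM in E, 269 in EM1, 174 in EM2 and 47.4 CPM (15.4 to 111) in M. Nkg7, which acts in granule release, was 2940.3 CPM (E), 2302 (EM1), 2271 (EM2), 2696 (EM3) and 1053 (M), and only M was low. Between M and E, 358 of 5403 genes were called (6.63%), 197 higher in M (3.65%) and 161 lower (2.98%). Of 15 granule genes tested in that pair, Gzma and Gzmf were higher in M and Prf1 and Nkg7 lower.

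Much of the granzyme signal came from few cells. Gzmf had a UMI in 19 of 560 members in E, 51 of 688 in EM1 and 6 of 252 in EM2, with 49 of 311 in EM3 and 3 of 63 in M. In M, 1 cell held 24 of 26 Gzmf UMIs and 1 cell 25 of 34 Gzma UMIs, and neither gene was called between M and E once the cell with most of its UMIs in each tumour was left out. The same step ended the call of Gzmc between EM2 and EM1, while Gzmd, Gzme and Gzmf were still called between EM3 and E and between EM2 and EM1. Prf1 was spread more widely, with a UMI in 40.2% of members in EM3, 25.7% in E, 21.1% in EM1, 15.1% in EM2 and 7.94% in M.

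The total-cell libraries of the same tumours gave a second reading. There, CD8 T cells were taken as annotated T/NK cells with a UMI of Cd8a or Cd8b1 and none of Cd4, Lef1 or the natural killer gene Klrb1c (1187, 350, 245, 327 and 117 cells in E, EM1, EM2, EM3 and M), so the cells are chosen by another rule than the annotated class. Gzmf was 221 CPM (E), 232 (EM1), 25.4 (EM2), 1377 (EM3) and 826 (M). EM3 was again high and EM2 low, but E and EM1 were alike and M was high. Gzmb was 1354 CPM (E), 575 (EM1), 699 (EM2), 579 (EM3) and 954 (M), so EM3 and EM1 lay more than 2-fold below E, unlike in the CD45 libraries. Gzmd was 104 CPM (E), 129 (EM1), 15.3 (EM2), 323 (EM3) and 428 (M) and Gzme 64.7 CPM (E), 78.6 (EM1), 0 (EM2), 208 (EM3) and 292 (M), with M highest and EM1 close to E. The high level of both genes in EM1 was therefore not found in these libraries, and M, with 1 UMI of each in its CD45 library, was high. Gzmk was 137 CPM (E), 139.8 (EM1), 178 (EM2), 122 (EM3) and 70.1 (M), with M lowest and the intervals of E and EM3 overlapping. Gzmc was 126 CPM (E), 45.4 (EM1), 17.8 (EM2), 207 (EM3) and 97.4 (M), which puts EM1 below E and EM3 less than 2-fold above it. Gzma was 343 CPM (E), 218 (EM1), 160.2 (EM2), 42.6 (EM3) and 39.0 (M), which puts M below E, the opposite of the CD45 library. Prf1 was 193 CPM (E), 162 (EM1), 175 (EM2), 244 (EM3) and 74.0 (M), with EM3 highest and M lowest as in the CD45 libraries. The high Gzmf of EM3 and the low Prf1 of M were thus seen in both libraries, and the rank of EM1 in Gzmf was not.

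**Figure D2:**
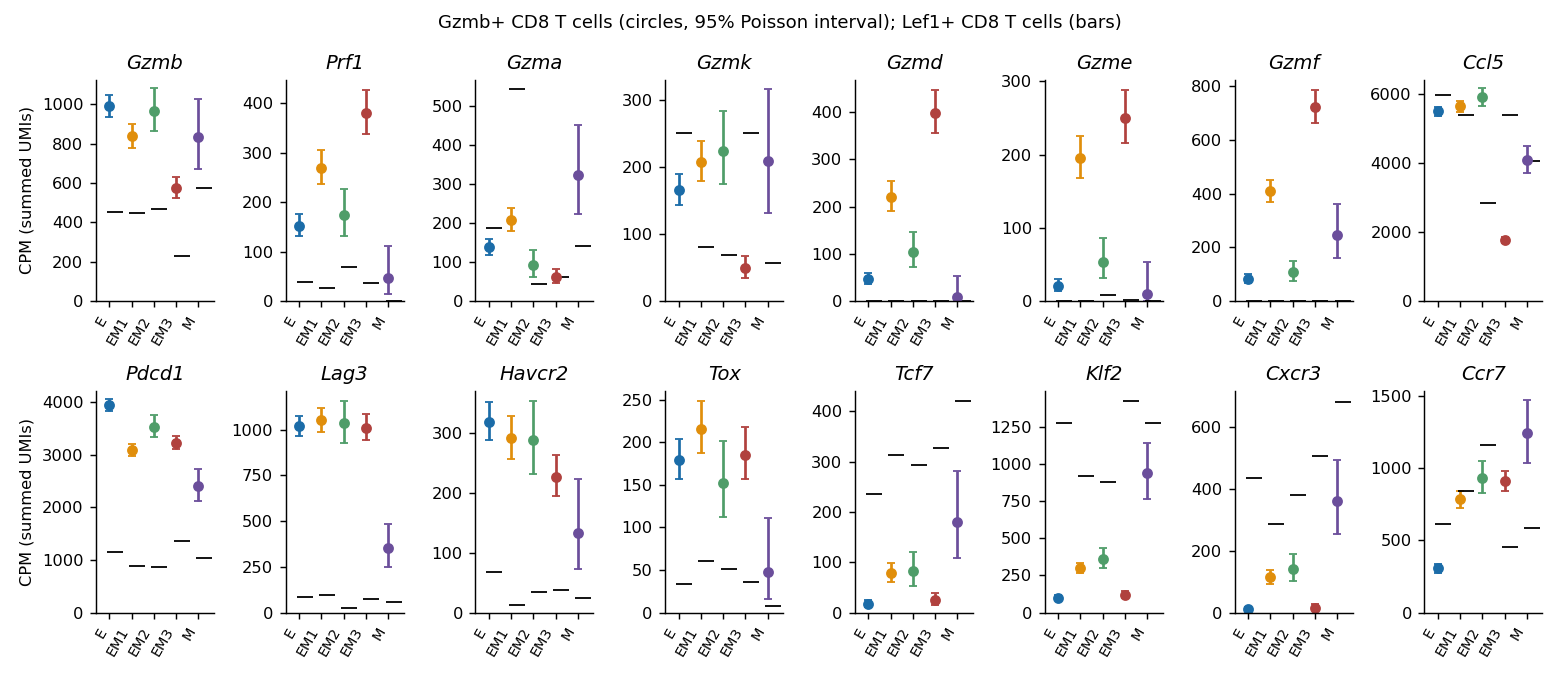
Level (CPM, linear axis) of 16 genes in Gzmb+ CD8 T cells of 5 tumours. Circles are summed levels with 95% Poisson intervals, and black bars mark Lef1+ CD8 T cells of the same library, drawn with no interval. Gzmb is lowest in EM3, a rank that depends on a single cell of M, while Gzmf, Gzmd and Gzme are highest in EM1 and EM3 in these CD45 libraries.

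Secreted effectors were examined next. Ccl5, a chemokine that attracts T cells and monocytes, was 5510.1 CPM (E), 5657 (EM1), 5926 (EM2), 1773 (EM3) and 4097 (M). It fell in EM3 against E by 1.63 on the log2 scale, and was the only 1 of 9 genes of that list called in the pair, where 1.24% of all genes were. In the total-cell libraries it was 4123 CPM (E), 3859.7 (EM1), 2742 (EM2), 2376 (EM3) and 2368 (M), less than 2-fold lower in EM3 than in E, with M as low as EM3. Xcl1, which attracts cross-presenting dendritic cells, was 153 CPM (E), 131 (EM1), 37.9 (EM2), 237 (EM3) and 66.4 (M), and was lower in EM2 than in EM1. In the total-cell libraries that difference was lost, with 87.4 CPM in EM1, 66.1 in EM2 and overlapping intervals. Of 11 genes of the list tested between EM2 and EM1, where 1.31% of all genes were called, Ccl1 and Il10 were called too, but 1 cell of EM1 held 90 of 112 Ccl1 UMIs and 1 cell of EM2 held 14 of 20 Il10 UMIs, and neither call remained without those cells. Ifng, the main cytokine of cytotoxic T cells, lay between 72.7 CPM in EM2 and 114 in M. Fasl, the death ligand, lay between 354 CPM in EM3 and 522 in M. No gene of the list was called between M and E, of 9 tested, where 6.63% of all genes were.

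Pdcd1, which encodes PD-1, was high in all 5 tumours, and most checkpoint genes that could be tested between M and E were lower in M. Of 12 such genes listed, 7 reached 50 CPM in M or E. Pdcd1 was 3943 CPM (E), 3098 (EM1), 3538 (EM2), 3233 (EM3) and 2409 (M), and no pair differed 2-fold. Lag3 was 1018 CPM (E), 1051 (EM1), 1036 (EM2), 1011 (EM3) and 351 (M), so 4 tumours stood within a narrow range and M well below them. Havcr2 was 319 CPM (E), 291 (EM1), 287 (EM2), 227 (EM3) and 133 (M). Entpd1, the ectonucleotidase CD39, was 419 CPM (E), 302 (EM1), 265 (EM2), 251 (EM3) and 75.9 (M), and Tox, a transcription factor of exhausted cells, was 179 CPM (E), 216 (EM1), 152 (EM2), 185 (EM3) and 47.4 (M). Of 7 checkpoint genes tested between M and E, 5 were lower in M (Lag3, Havcr2, Entpd1, Cd200 and Tox) and 0 higher. The list median was -1.51, against 0.07 over all genes, of which 2.98% were called lower. Ctla4 (915 CPM in E and 559.6 in M) and Pdcd1 were not called. In the pairs EM3 against E and EM2 against EM1, 0 of 7 and 0 of 9 were called in either direction, where 1.24% and 1.31% of all genes were. The mean log2(CPM + 10) of the list was 7.34 in E, 7.32 in EM1 and 7.20 in EM2, with 7.18 in EM3 and 6.25 (6.01 to 6.50) in M, and that of the granule list 7.12, 7.70, 7.32, 7.61 and 7.0046 (6.83 to 7.18). The first was lowest in M, with its interval below every other tumour, and the interval of the second in M includes the value of E. In the total-cell libraries Lag3 was 753 CPM (E), 653 (EM1), 516 (EM2), 637 (EM3) and 253 (M) and Tox 143 CPM (E), 147 (EM1), 114 (EM2), 131 (EM3) and 11.7 (M), again lowest in M. Havcr2 (58.4 CPM), Entpd1 (85.7) and Cd200 (39.0) were lowest in M there too. Pdcd1 was lowest in EM1 (1794 CPM, against 1842 in M) and Ctla4 in EM3 (412, against 460 in M), with overlapping intervals. Tigit, below 50 CPM in all 5 tumours there, was highest in M at 35.1 CPM.

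Genes of naive and stem-like T cells showed the reverse. Of 10 tested between M and E, 8 were higher in M (Tcf7, Lef1, Ccr7, Il7r, S1pr1, Klf2, Bach2 and Satb1) and 0 lower, with a list median of 1.68 against 0.07 over all genes, of which 3.65% were called higher. In the total-cell libraries Il7r, at 123 CPM in E and 241 in M, and Satb1, at 319 and 643, differed by less than 2-fold on CPM + 10, and Lef1 is at 0 by the choice of those cells. Tcf7, which encodes TCF-1, was 16.6 CPM (E), 78.5 (EM1), 82.1 (EM2), 25.8 (EM3) and 180.2 (M). Klf2, which drives expression of the egress receptor S1pr1, was 101 CPM (E), 299 (EM1), 360.1 (EM2), 118 (EM3) and 939 (M). Both were lowest in E and highest in M, with EM1 and EM2 above E and EM3, a division that also follows the sets of libraries with shared barcode starts. Ccr7, the receptor for lymph node entry, was 306 CPM (E), 784 (EM1), 935 (EM2), 910.4 (EM3) and 1242 (M), so that E alone was low, and it rose in EM3 against E as well, together with Bach2. In the total-cell libraries Ccr7 was 260.5 CPM (E), 1043 (EM1), 1111 (EM2), 569 (EM3) and 927 (M), with E again lowest, and Bach2, at 106 CPM in EM3 and 65.9 in E, differed by less than 2-fold. Lef1 was no longer called between M and E without the cell with most of its UMIs in each tumour, a step that lowers M, with fewer members, more than E.

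Other measurements moved with M. Klf2 is also a granulocyte transcript: cells not annotated T or NK were at 184 CPM for it in E against 404 in M, and the granulocyte gene S100a8 in member cells was 549 CPM in E and 958 in M. Tcf7 in those other cells was 1.05 CPM in M. The part of such transcripts in the Klf2 difference was not tested. Klf2 had a UMI in 34 of 63 members of M. In the total-cell libraries Tcf7 was 34.0 CPM (E), 129 (EM1), 125 (EM2), 89.6 (EM3) and 187 (M) and Klf2 236 CPM (E), 557 (EM1), 491 (EM2), 337 (EM3) and 682 (M), with E lowest and M highest in each. Scaling the libraries by TMM, a trimmed mean of ratios, shifted M to E log2 ratios by -0.16 before the pseudocount is added, less for low genes after it, and changed the 358 calls to 391, with 135 higher in M and 256 lower. Without the cell with most UMIs of each gene, 102 were higher and 312 lower, and 260 of the 358 were still called. That step takes 1 of 63 members from M but 1 of 560 from E, so by itself it lowers M more. The balance of higher and lower genes in that pair thus depends on these choices.

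Homing receptors changed in both directions in M. Cxcr3, the receptor for interferon-induced chemokines, was 11.9 CPM (E), 114 (EM1), 142 (EM2), 15.5 (EM3) and 360.4 (M), and had a UMI in 19 of 63 members of M against 12 of 560 of E. Its log2 ratio of 4.08 was the highest called between M and E. In the total-cell libraries Cxcr3 was 35.5 CPM (E), 97.8 (EM1), 148 (EM2), 85.1 (EM3) and 183 (M), a smaller difference, with EM3 above E. The higher Cxcr3 of EM1 and EM2 than of E and EM3 also follows the sets with shared barcode starts. Ccr8 was 71.3 CPM (E), 139 (EM1), 221 (EM2), 209.9 (EM3) and 285 (M), and was called higher in both EM3 and M against E. Among homing genes, Cxcr3, Ccr8, Cxcr4 and Itgb7 were higher in M than in E, and Ccr2 and Itga4 were lower. Cxcr4 in M was 920.0 CPM against 977 in cells not annotated T or NK. Between EM3 and E, Ccr2 was lower and Ccr8 higher. Of 12 homing genes tested between EM2 and EM1, 0 were called, where 1.31% of all genes were.

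Of 13 transcription factors of effector cells tested, 4 were lower in M than in E (Eomes, Prdm1, Zeb2 and Rbpj), 0 were higher and 9 were not called, with a list median of -0.24 against 0.07 over all genes, of which 2.98% were called lower. Eomes was 220.1 CPM in E and 37.9 in M, and Prdm1, which encodes Blimp-1, was 68.1 and 9.48. Irf8 was the only gene of 14 called between EM2 and EM1. It was 1170.1 CPM (E), 1280.5 (EM1), 540.2 (EM2), 2281 (EM3) and 654 (M), highest in EM3 and lowest in EM2 and M, as also in the total-cell libraries, at 1228 CPM (E), 844 (EM1), 539 (EM2), 1707 (EM3) and 471 (M). The lists that follow are read beside the 1.24% of all genes called between EM3 and E, 1.31% between EM2 and EM1 and 6.63% between M and E. Of the 17 genes of the T cell receptor complex, 0 were called between EM3 and E or between EM2 and EM1, and Cd8a fell in M against E. Cd5, Cd28, Cd69 and Nr4a1, called higher in M than in E, lost the call without the cell of each tumour with most of their UMIs, as did Cd226, called higher in EM2 than in EM1. That step lowers M and EM2, which have fewer members, more than E and EM1. The other genes of early receptor response and of costimulation were not called in these pairs. Genes of the interferon-gamma response were not called, apart from Gbp2, which was higher in M. Cell division genes, 6 tested in each pair, were not called either. The annotation holds Mki67+ T cells as a class outside the members, so that result cannot tell whether division differed between tumours. Of 6 type I interferon genes, Ifi27l2a fell in EM3 against E. Glycolysis genes, 12 tested, gave 1 call, Pgam1, lower in M. Survival genes gave 1, Bcl2l11, higher in M, and killer receptors gave Klre1, lower in EM2 than in EM1 and lower in M than in E.

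**Figure D3:**
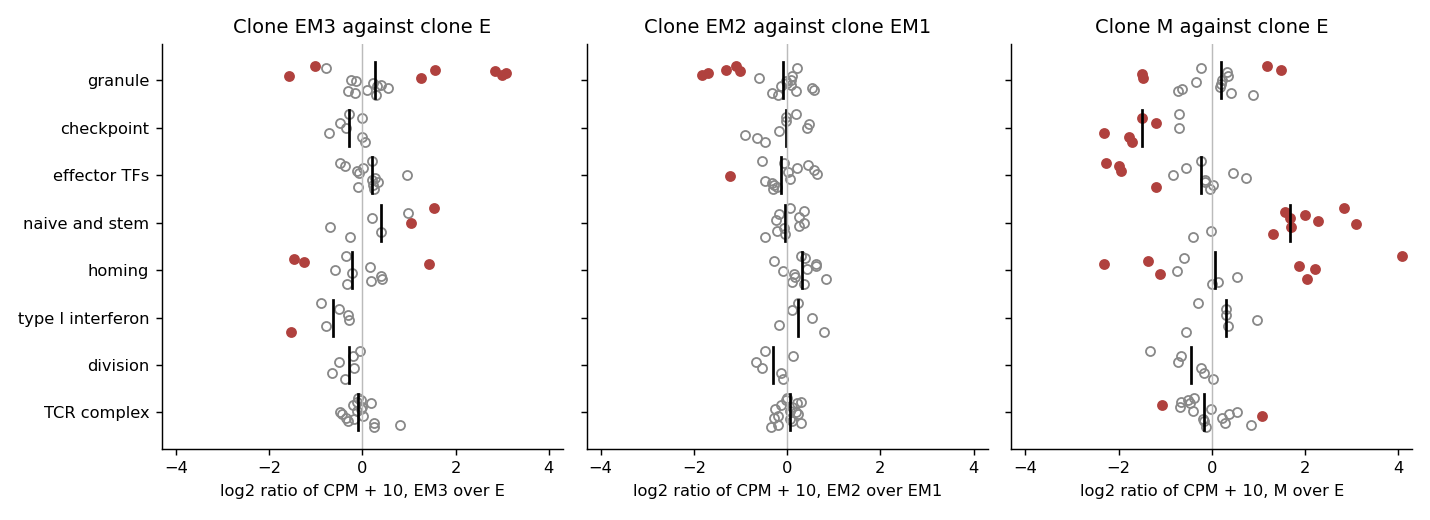
Log2 ratio of CPM + 10 for the genes of 8 lists in 3 pairs of clones. Filled red points are called genes, open points are tested genes not called, and black bars are list medians. In M against E the median of checkpoint genes lies at -1.51 and that of naive and stem-like genes at 1.68.

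Beyond the lists, V genes of the T cell receptor took several of the highest and lowest ranks and are described below. Between EM3 and E, the heat shock genes Hspa1b, Hspa1a and Hspb1 were among the 10 highest. Hspa1b was 42.8 CPM (E), 215 (EM1), 85.3 (EM2), 543 (EM3) and 0 (M), and it stood at 59.1 CPM in E and 415 in EM3 in Lef1+ CD8 T cells, so it was high in EM3 in both subtypes. Cells not annotated T or NK had 475 CPM in EM3. Hspb1, from 1.58 to 78.5 CPM, lost its call without the cell of each tumour with most UMIs. Galnt18 was also higher in EM3, and Supt5, Acpp and Grb7 were lower. Between EM2 and EM1, Rab11fip4, Grb7, Spry1 and Esm1 were higher in EM2, and Tcrg-C2, Rad54l2, Asph and Fchsd2 lower. Between M and E, Tnfsf8, the ligand of CD30, rose from 21.4 to 275 CPM, and Klf3, Serpinb9b, Dtx4, Sidt1, Ephb6 and Lad1 were also higher. Tnfsf4, the ligand of OX40, fell from 307 to 37.9 CPM, with Ppp2r2c. Hist1h1b, Grb7, Hist1h1d, Glp1r, Svil and Aldh18a1 had no UMI in M, and were at least 2.98-, 2.89-, 2.75-, 2.62-, 2.23- and 2.03-fold lower against a floor of 3 UMIs over the group.

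Some called genes were below their level in cells not annotated T or NK: 12 of 63 between EM3 and E (7 higher and 5 lower), 16 of 69 between EM2 and EM1 (6 and 10) and 75 of 358 between M and E (17 and 58). The share of all tested genes below that level is not reported here, so these counts show no excess or lack among called genes. The largest in each direction were Hal, Klf4, Ighg1 and Ly6c2 for EM3 against E, Thbs1, Fn1, Ighg1 and Igkc for EM2 against EM1, and Sh3bp5, Cxcr4, Mmp19 and Inhba for M against E. Mmp19 fell from 497 to 18.97 CPM in member cells while the other cells of E held 6552 CPM. Ighg1, an antibody heavy chain, was at 308 CPM in EM1 and 28.4 in EM2, with 4618 CPM in the other cells of EM1. Without the 10% of members of each tumour with most UMIs of other lineages, a step chosen after seeing the data, 66, 71 and 365 genes were called between EM3 and E, EM2 and EM1, and M and E, beside 63, 69 and 358 with all members.

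Set beside Lef1+ CD8 T cells of the same libraries, the closest subtype, the cells differed in genes of several kinds: of the 15 highest, Gzmf and Gzmd are granule genes, Lag3 and Cd200 checkpoint genes, and 11 are of neither list. Since the annotation was made from these cells' genes, the comparison is a description. Over 5176 genes and the 5 tumours with at least 50 member cells, 163 had a median ratio of at least 2-fold higher and 122 at least 2-fold lower. The highest medians of the log2 ratio were Gzmf at 4.68, Nrn1 at 4.24, Slc16a11 at 3.76, Penk at 3.64, Gzmd at 3.51, Gldc at 3.47, Lag3 at 3.40 and Myo10 at 3.29. The median of Gzmf is its ratio in M, where a single cell held most of its UMIs, so its rank depends on that cell. The Gzmf ratio was 3.21 in E, 5.39 in EM1, 3.55 in EM2 and 5.90 in EM3. Penk encodes the opioid precursor proenkephalin, and Nrn1 encodes neuritin, a membrane-anchored protein first known from neurons. Creb3l2, Cd200, Igfbp7, Mest, Impa2, Gpr162 and Fcrl6 completed the 15 highest, down to 2.64. Among the lowest were Zbtb16 at -3.86, which encodes the innate-like T cell factor PLZF, Trdc at -3.44 and Klra5 at -3.25, with Pde2a, Klra7, Pou6f1, Gpr55, Ifit3 and Ly6c2.

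Cell to cell, the named genes were far from uniform. Every cell was thinned to 1000 UMIs and shallower cells were left out, which kept 545, 441, 157, 305 and 57 members in E, EM1, EM2, EM3 and M. Gzmb was then found in 35.0% (31.0 to 39.2) of members in E, 27.2% in EM1 and 40.1% (32.4 to 48.2) in EM2, with 20% (15.7 to 24.9) in EM3 and 24.6% in M. Without thinning the shares were 42.3%, 30.5%, 33.7%, 28.6% and 25.4%. Most members of each tumour thus had no Gzmb UMI at this depth, and EM3 was below E and EM2. Pdcd1 was found in 94.9% in E, 83.2% in EM1 and 86.0% in EM2, with 91.1% in EM3 and 66.7% in M, and Lag3 in 57.2%, 55.1%, 58.6%, 59.7% and 24.6%. M was lowest in both. Without thinning, Lag3 was found in 75.5% in E and 30.2% in M, and Pdcd1 in 98.4% and 74.6%. Tcf7 was found in 0.917% in E and 21.1% in M. In granulocytes of these 5 tumours (median 690 to 1220 UMIs), thinned alike, Gzmb was in 0.0539 to 0.732%, Pdcd1 in 0.364 to 2.66% and Lag3 in at most 1.26% of cells, so the shares in members lie above that background.

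Each T cell builds its receptor beta chain from 1 of a set of variable (V) genes and passes that choice to its daughters, so a V gene found in many cells of a tumour is a mark of how the population is composed. The deposited tables hold 20 Trbv genes and no Trav gene, and no receptor sequences were assembled. The ends of 4 V genes are given to show how they differ: Trbv13-3, Trbv14 and Trbv19, each the most often found in at least 1 tumour, and Trbv29, close behind Trbv14 in EM3. They are on chromosome 6, plus strand, of GRCm38, with capitals from the conserved cysteine codon onward, where the antigen-contacting loop of the chain begins.
Trbv13-3, gene at chr6:41130147-41130585: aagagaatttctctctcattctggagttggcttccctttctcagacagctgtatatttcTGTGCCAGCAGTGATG
Trbv14, gene at chr6:41135145-41135616: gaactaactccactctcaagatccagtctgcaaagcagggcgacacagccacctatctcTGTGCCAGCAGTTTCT
Trbv19, gene at chr6:41178375-41179048: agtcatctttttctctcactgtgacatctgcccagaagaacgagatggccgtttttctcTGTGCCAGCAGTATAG
Trbv29, gene at chr6:41271394-41271881: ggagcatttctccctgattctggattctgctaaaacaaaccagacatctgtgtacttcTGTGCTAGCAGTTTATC
The Trbv13-3 transcript is 90.6% identical to Trbv13-2 and 44.3% to Trbv19, and 0.344% of the 50-base words of Trbv13-2 are found in it.

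The most often found V gene was Trbv13-3 in E, Trbv14 in EM1 and EM3, and Trbv19 in EM2 and M. In E, Trbv13-3 had a UMI in 43.6% (39.4 to 47.8) of Gzmb+ CD8 T cells, against 7.22% of Lef1+ CD8 T cells and 4.65% of CD4 T cells. The CD8 T cells of E's total-cell library had 39.0%. In EM1 the leader was Trbv14, in 48.4% (44.6 to 52.2), against 7.77% of Lef1+ and 4.63% of CD4 T cells, and 41.4% in the total-cell library. EM3 had Trbv14 in 22.5% and Trbv29 in 20.9%, with 17.4% and 19.3% in the total-cell library. M had Trbv19 in 39.7% (27.6 to 52.8) and Trbv4 in 20.6%, with 34.2% and 17.9%. In Lef1+ CD8 T cells of EM3, Trbv14 and Trbv29 were each in 5.65%, and in those of M, Trbv19 and Trbv4 were each in 7.58%. In EM2 the most often found was Trbv19, in 17.9% (13.3 to 23.2), against 9.09% (3.73 to 17.8) of Lef1+ cells, intervals that overlap, and 12.2% in the total-cell library. Trbv13-3 in E and Trbv14 in EM1 thus reached the highest shares, in both libraries, and were far less often found in Lef1+ and CD4 T cells of those tumours. At least 1 Trbv UMI was found in 81.6% of members in E, 82.6% in EM1 and 63.9% in EM2, with 84.9% in EM3 and 74.6% in M. Of the 8 parental cells, 3 had Trbv19 and 3 had Trbv29.

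**Figure D4:**
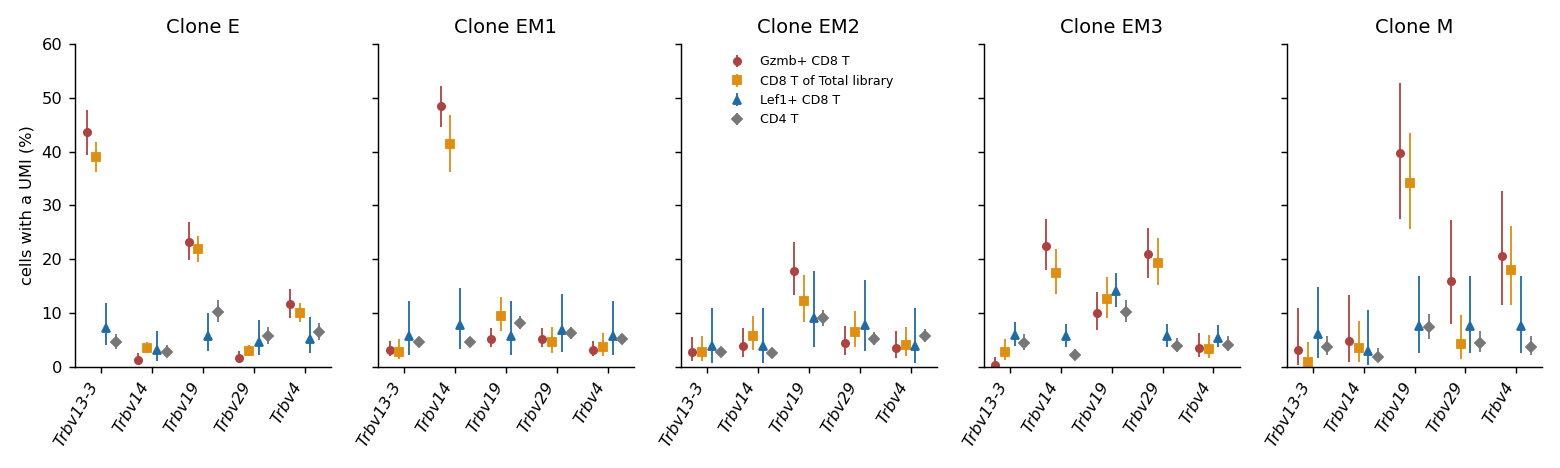
Share of cells (percent) with a UMI of 5 Trbv genes in 5 tumours, for Gzmb+ CD8 T cells, CD8 T cells of the total-cell library, Lef1+ CD8 T cells and CD4 T cells, with 95% exact binomial intervals. Trbv13-3 leads in E and Trbv14 in EM1, in both libraries.

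In E, some receptor genes were found in the same cells and others were not. Of 147 members with at least 2 Trbv13-3 UMIs, 64 (43.5%, 35.4 to 52.0) also had a Trbv19 UMI, against 33 of 316 (10.4%, 7.30 to 14.4) with none. The gamma chain gene Tcrg-V7 went the other way: 0 of 39 members with at least 2 UMIs of it had Trbv13-3, against 242 of 501 (48.3%). Why cells carry UMIs of 2 beta V genes was not tested. These genes were chosen after the values were seen.

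In E, EM1 and EM3, cells with the leading V gene were set beside the rest, a comparison within 1 library that was added after the data were seen. Trbv19 cells of EM2 and M were not compared. Receptor genes were left out. In EM1, 307 cells with at least 2 Trbv14 UMIs (median 1348 UMIs) were set beside 355 with none (median 1008), and 160 of 5240 genes were called (3.05%), 68 higher and 92 lower in Trbv14 cells. Gzmf was 763 CPM with Trbv14 and 46.7 without, and Prf1 was 379 and 166. In the total-cell library Gzmf was 362 and 106, a smaller ratio that was still called, and Prf1, at 187 and 139, was not called. In the CD45 library Irf8 was 1986 and 534. The opposite held for Gzma, at 28.2 with and 408 without, for Cxcr3, at 15.2 and 224, and for Tcf7, at 28.2 and 133. Gzmb, at 648 and 1071, and Pdcd1, at 3103 and 3040.2, were not called. Members of EM2 had 107 CPM of Gzmf, above the EM1 cells without Trbv14 in these libraries, whereas in the total-cell libraries EM2 had 25.4 CPM and EM1 cells without Trbv14 106. In the total-cell library, 140 of the 160 genes could be tested, 128 had the same sign and 58 were called, all 58 with the same sign, among 187 of 5565 called there (3.36%).

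**Figure D5:**
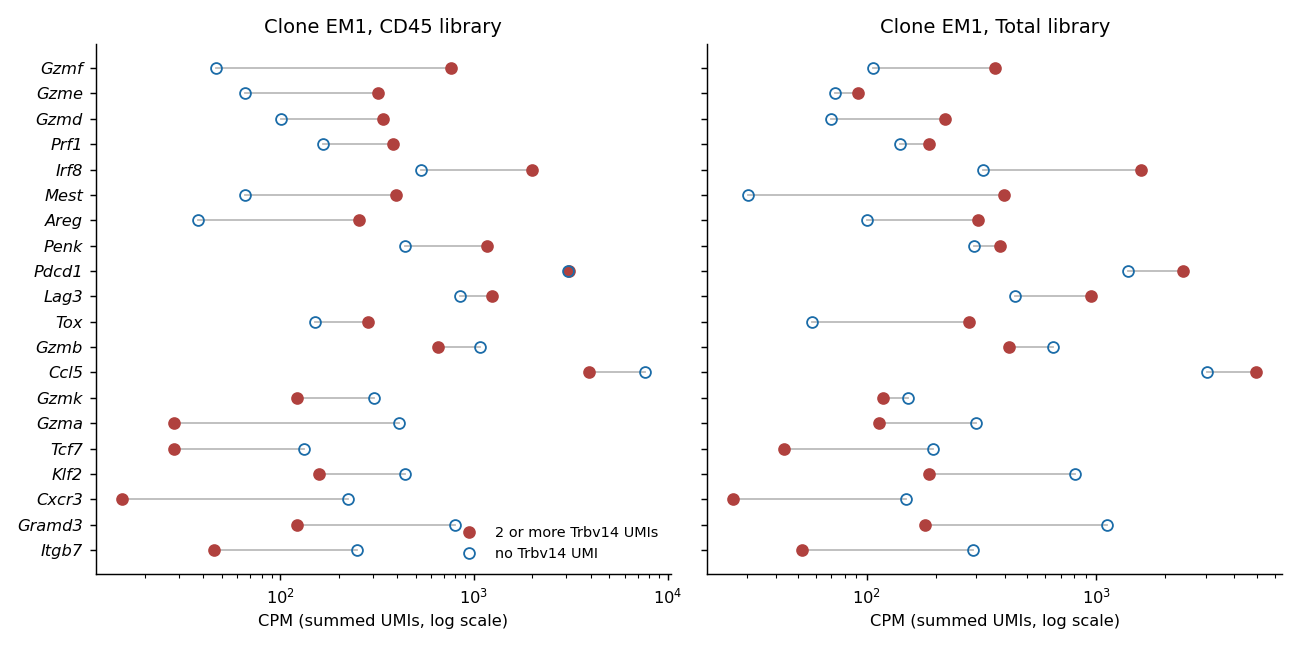
Level (CPM, log axis) of 20 genes in EM1 cells with at least 2 Trbv14 UMIs (filled) and with none (open), in the CD45 library and in CD8 T cells of the total-cell library. Gzmf, Irf8 and Mest are higher, and Gzma, Cxcr3 and Tcf7 lower, in Trbv14 cells of both.

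Trbv14 cells of EM3 were compared in the same way. There 68 cells with and 241 without Trbv14 differed in 48 of 5200 genes (0.923%), 20 higher and 28 lower. Gzmf was 814 CPM with and 698 without, which is not a call, and Gzmb was lower, at 271 and 669, a call that the total-cell library, at 358 and 635, did not give. Mest, an imprinted gene named after its values were seen, was higher with Trbv14 in EM3, at 676 and 206, as in EM1, at 397 and 65.3. So was Areg, the growth factor amphiregulin, at 266 and 35.4 in EM3, but in the total-cell library of EM3 it was 245 and 166, which is not a call. Of the 48 genes, 41 could be tested in the total-cell library, 33 had the same sign and 8 were called, all with the same sign, among 72 of 5516 called there (1.31%). In E, 147 cells with at least 2 Trbv13-3 UMIs and 316 with none differed in 42 of 5059 genes (0.83%), and 32 of 5066 were called in the total-cell library of E (0.632%). Gzma was 65.0 and 207, Gzmf 16.2 and 115, and Nrn1 763 and 344. In the total-cell library of E, Gzmf was 290.0 with and 210.4 without, the opposite direction and not called, while Gzma at 107 and 530.4 kept its direction. Of 34 genes tested there, 28 had the same sign, and of the 9 called, 8 had the same sign. Whether the difference in profile comes with the V gene or with the particular cells that carry it cannot be told apart.

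The share of Gzmb+ CD8 T cells was last set against the epithelial-mesenchymal state of the tumour cells, scored in the total-cell libraries as the mean log2 level of 12 mesenchymal genes less the same mean of 13 epithelial ones. The score was lowest in E at -1.50, then 1.03 in the parental tumour, 1.44 in EM1, 2.13 in EM2, 2.52 in M and 3.43 in EM3. Over the 6 tumours, Pearson's r with the share of CD45 cells was -0.36 (two-sided exact permutation p = 0.503) and Spearman's rho was -0.14 (exact p = 0.803). With the share of CD8 T cells r was -0.33 (exact p = 0.563) and rho -0.14 (exact p = 0.803). After Benjamini-Hochberg adjustment over the 2 relations, the exact permutation p-values were 0.563 for both r and 0.803 for both rho. Leaving out E and EM3, whose scores lie farthest from the median, gave an r of -0.15 for CD45 cells and 0.27 for CD8 T cells. Neither relation was detectable over 6 tumours.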

How the data were processed

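Tumours from 4T1 clones E, EM1, EM2, EM3 and M and from parental 4T1 were digested and enriched for CD45 with magnetic beads, per the labels' protocols, which name both a fixed RNA kit and 3′ reagents. The submitters' processing notes name Cell Ranger and mm10. The authors deposited raw UMI counts per gene and cell, and their own cell labels with the mitochondrial percent of each cell, per the file headers. No value column was left unmapped (0).

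Doublets were called with Scrublet in scanpy 1.11.5 at 1 score limit, with 2 simulated pairs per cell, 6% expected and 30 components. It marked 2135 of 115612 cells (1.85%, 1.03 to 2.62% per library), 3 of them members. UMIs of member cells were summed per tumour and given as CPM with exact Poisson intervals. Shares have exact Clopper-Pearson intervals (scipy 1.17.1). Ratios used a pseudocount of 10 CPM and genes of at least 50 CPM. TMM came from edgeR 4.0.16 (R 4.3.3), as an alternative only. Other tools were Python 3.11.15, numpy 2.4.6, pandas 2.3.3, matplotlib 3.10.9 and Biopython 1.88. The rule for calling genes between clones was tested on simulated Poisson counts, which hold no variation between cells. Upstream sequences are from RefSeq (GRCm38.p6), and positions and V genes from GENCODE M21. Listed genes absent from the CD45 tables were Cx3cr1, Znf683, Klrb1c, Klra9, Hmgb2, Mx1, Gapdh, Eno1, Trgc1 and Trgc2.

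Named genes are any of the granule, cytokine, checkpoint and naive lists, the 10 highest and 10 lowest called genes per pair at or above the level of cells not annotated T or NK, the 2 largest below it, and the 15 highest and 10 lowest against Lef1+ cells. Other names were chosen after their values were seen. Some genes that the rule selects are not reported here. The members and lists were chosen with earlier results of these data known.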

Additional observations from a re-analysis of the deposited data

How the results depend on the processing

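For 22 results, 106 alternatives were computed. In 87 of them the value stayed within its interval or within 1.5 times the count, and in 19 it did not. Leaving granulocytes out of the whole changed the share of CD45 cells in EM3 minus E from -2.38 to -2.97 points, and in M minus E from -4.42 to -5.23. The granule score (mean log2 of CPM + 10) of EM3 minus E, 0.50, became 0.27 with both CD8 subtypes together, 0.64 and 0.36 with pseudocounts of 1 and 50 CPM, and 0.16 in the total-cell libraries. For EM2 minus EM1 it was -0.38, and -0.55 and -0.26 with those pseudocounts. For M minus E it was -0.11, and -0.30 without cells with a UMI of 8 division genes. The checkpoint score of EM3 minus E, -0.15, became -0.43 with both subtypes and -0.30 in the total-cell libraries. For EM2 minus EM1 it was -0.13, with an interval that includes 0, and its sign changed to 0.10 in the total-cell libraries. For M minus E, -1.08 became -1.57 and -0.78 with pseudocounts of 1 and 50 CPM. Genes called between EM3 and E were 116 at a minimum of 20 CPM and 38 at 100 CPM, in place of 63, and between EM2 and EM1 44 at 100 CPM, in place of 69. The M minus E share of members with a Lag3 UMI was -45.4 points without thinning and -32.7 with it. The r between the EMT score and the share of CD8 T cells reversed to 0.27 without E and EM3. The cause of these changes was not tested. A planned filter on cells with 2 or more UMIs of other lineages left 3, 55, 20, 0, 3 and 0 members in E, EM1, EM2, EM3, M and the parental tumour, so it was replaced, after seeing the data, by leaving out the 10% of members with most such UMIs, which moved none of the scores or counts of calls beyond those bounds. Leaving out the cell with most UMIs of each gene, and the alternatives that split cells by Trbv13-3 or Trbv14, were also chosen after seeing the data. No paired analysis was possible because each group is 1 tumour. Among the 5 tumours used for levels, depth limits M most, where 63 cells give 105436 UMIs.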
